A study of Mus musculus with 24 samples.

Results

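The messenger RNAs of the fibrillar and beaded filament collagens were followed in mouse liver, as the 10 chain genes of collagens I, III, V and VI and of collagen XIV: Col1a1, Col1a2, Col3a1, Col5a1, Col5a2, Col5a3, Col6a1, Col6a2, Col6a3 and Col14a1. They were chosen by gene symbol from the 41388 genes of the count tables, and all 10 were among the 13052 genes that passed the filter on low counts. Of the other 34 collagen genes in the tables, 12 passed it.

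Collagens are secreted proteins whose chains wind around one another in a triple helix, which requires a glycine at a fixed place in each repeat. Collagens I, III and V assemble into the striated fibrils of connective tissue, where collagen I gives tensile strength, collagen III makes the fine reticular fibres of the liver, and collagen V lies in the fibril core and limits fibril width. Collagen VI forms the beaded microfibrils that lie close to cells, and collagen XIV sits on the fibril surface. In the liver these chains are made mainly by stellate cells and portal fibroblasts, and their accumulation is the hallmark of fibrosis.

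Livers of male mice on a C57BL/6J background were compared in 4 groups of 5 mice, one RNA-seq library per mouse. Adn-Lpin1-/- mice carry floxed Lpin1 alleles, encoding the phosphatidic acid phosphatase lipin 1, with Cre recombinase driven by the adiponectin promoter, which is active in adipocytes and not in the liver itself. WT mice were littermates homozygous for the floxed allele without Cre, so both genotypes carry the floxed allele. From 8 weeks of age the mice ate a low-fat diet (LFD, 10% of kcal from fat) or a high-fat diet (HFD, 60% of kcal from fat). The diet period is given as 16 weeks in the sample labels and as 5 weeks in the methods, and the mice were fasted for 4 h before tissue was taken. A pool library was also made for each group. Total counts ranged from 36260187 to 45999456 in WT LFD mice, from 51095146 to 61435897 in Adn-Lpin1-/- LFD mice, from 54036184 to 62249701 in WT HFD mice and from 57550362 to 81072794 in Adn-Lpin1-/- HFD mice, so the WT LFD group was the shallowest. Levels are given as CPM, read counts relative to the size of the library after TMM scaling, and differences as log2 fold changes with their standard error (SE).

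The tissue carried the defining markers of liver: the hepatocyte genes Alb (albumin), Apoa1, Ttr, Serpina1c, Cyp2e1 and Hnf4a summed to between 77810 and 121909 CPM in every mouse. Hepatic Lpin1, which the adipocyte Cre should not touch, averaged 358 ± 208 CPM (SD, n = 5) in WT LFD mice and 614 ± 339 CPM in Adn-Lpin1-/- LFD mice (log2 fold change 0.78, edgeR adjusted p = 0.314). On the HFD it averaged 274 ± 168 CPM in WT mice and 331 ± 216 CPM in Adn-Lpin1-/- mice (log2 fold change 0.27, edgeR adjusted p = 0.734). Liver RNA therefore does not test the adipocyte deletion.

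The chains share the repeat that builds the helix, and the length of its longest uninterrupted run separates the fibrillar chains from the others. In the open reading frames of the GENCODE M21 transcripts (GRCm38), glycine codons headed 338 successive codon triplets without a break in Col1a1, 339 in Col1a2, 344 in Col3a1, 338 in Col5a1, 339 in Col5a2 and 337 in Col5a3. The longest run was 87 triplets in Col6a1 and in Col6a2, 45 in Col6a3 and 32 in Col14a1. The first 18 codons of that run are shown for 2 chains of the collagen I molecule, for Col5a3, the most abundant chain in these livers, and for a collagen VI and the collagen XIV chain, 5′ to 3′ with the recurring glycine codons in capitals:
Col1a1: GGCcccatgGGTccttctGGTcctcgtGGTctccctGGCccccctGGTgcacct
Col1a2: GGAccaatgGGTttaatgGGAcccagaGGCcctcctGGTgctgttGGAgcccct
Col5a3: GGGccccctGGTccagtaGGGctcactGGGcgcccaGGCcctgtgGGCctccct
Col6a1: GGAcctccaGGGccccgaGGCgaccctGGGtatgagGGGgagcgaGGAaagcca
Col14a1: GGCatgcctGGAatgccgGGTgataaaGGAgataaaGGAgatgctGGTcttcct

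Per base, the most abundant chain of the WT liver was not one of the major fibril chains. Divided by the summed exon length of each gene, WT LFD livers held 11.9 ± 1.4 CPM per kb of Col5a3 (SD, n = 5), 4.32 ± 1.23 of Col14a1, 1.66 ± 0.381 of Col6a1 and 1.5 ± 0.568 of Col3a1. Col5a1 followed with 0.966 ± 0.194 CPM per kb, then Col1a1 with 0.707 ± 0.356 and Col1a2 with 0.668 ± 0.190. The lowest were Col6a3 (0.474 ± 0.129 CPM per kb), Col6a2 (0.447 ± 0.105) and Col5a2 (0.227 ± 0.0412). Col5a3 stood above every other chain in all WT LFD mice, and Col14a1 above the remaining 8 in their means, whereas Col6a1 and Col3a1, Col1a1 and Col1a2, and Col6a3 and Col6a2 lay within each other's SD. In Adn-Lpin1-/- LFD mice Col5a3 was at 15.9 ± 3.12 CPM per kb, Col14a1 at 8.24 ± 2.76, Col3a1 at 5.80 ± 3.69, Col1a1 at 5.11 ± 4.05 and Col6a1 at 3.32 ± 1.31. The order below Col5a3 depends on the length used, since the summed exons of Col1a2 span 12136 bases and its longest coding transcript 5348. Per kb of the longest coding transcript, Col3a1 (2.65 ± 1.00 CPM) was above Col6a1 (1.78 ± 0.407) already in WT LFD mice, and Col1a2 (1.52 ± 0.432) and Col6a2 (0.943 ± 0.221) stood above Col1a1 (0.782 ± 0.394). By that length the mean of Col3a1 (10.2 ± 6.51 CPM per kb) also exceeded that of Col14a1 by less than their SD (8.95 ± 3.00) in Adn-Lpin1-/- LFD mice, while Col5a3 remained the highest in every group and Col14a1 the second in WT mice on either diet by their means.

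**Figure D1:**
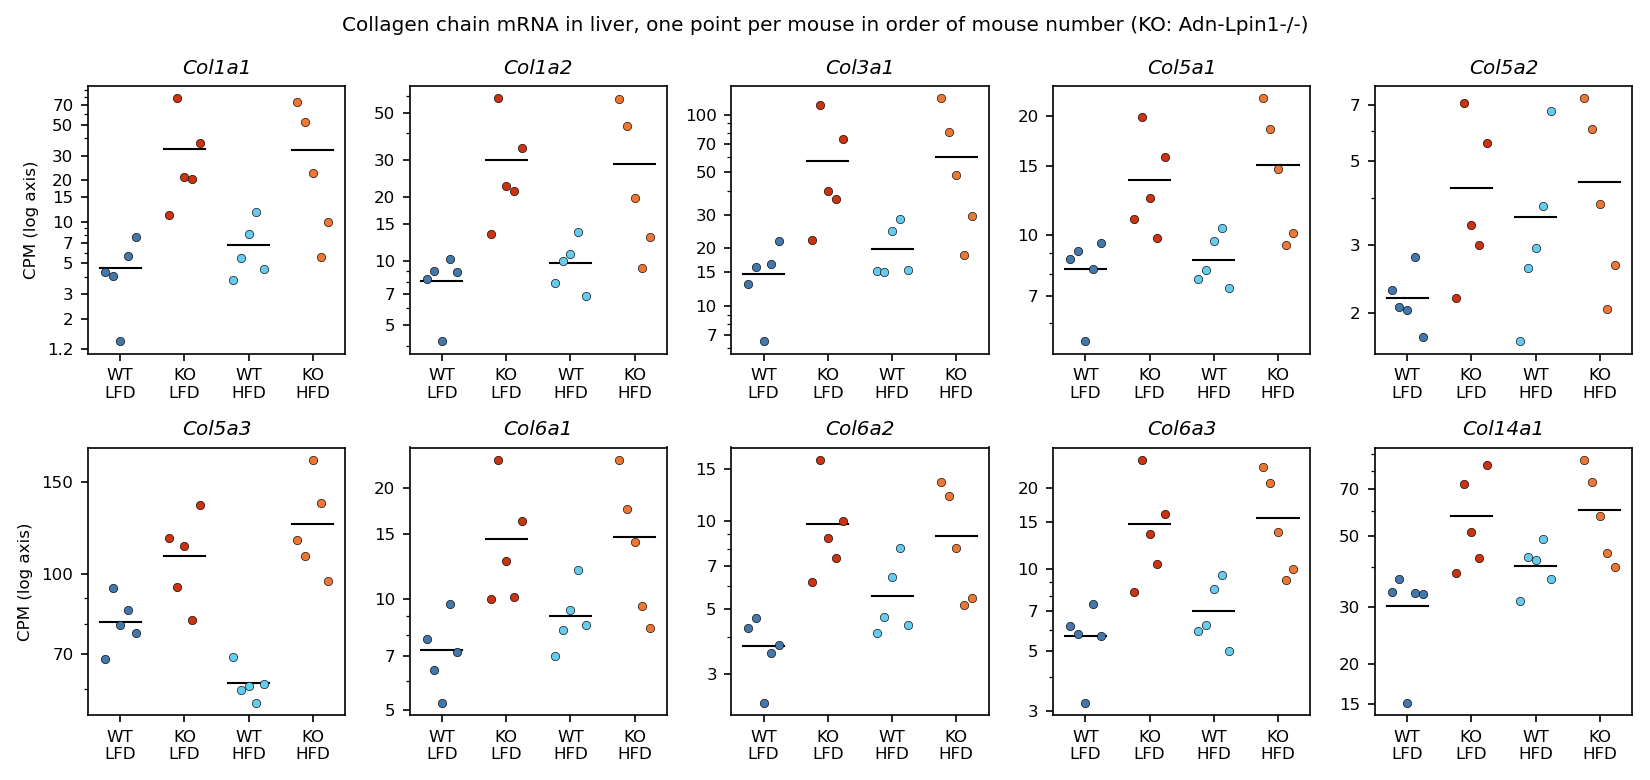
Level of each collagen chain in CPM (log axis) for the 20 mice, each point a mouse in order of its number within its group, with the group mean as a line; KO stands for Adn-Lpin1-/-. The 5 Adn-Lpin1-/- LFD mice lie above all 5 WT LFD mice in 8 of the 10 panels, and on the HFD this holds only for Col5a3.

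Collagen I mRNA was higher in Adn-Lpin1-/- livers on both diets. Col1a1, encoding the α1 chain (ENSMUSG00000001506, chr11:94936224-94953042, plus strand), was at 4.32, 4.07, 1.37, 5.68 and 7.74 CPM in the WT LFD mice and at 11.2, 78.1, 21.1, 20.3 and 37.1 CPM in the Adn-Lpin1-/- LFD mice. The groups did not overlap, and among the Adn-Lpin1-/- mice the highest, mouse 2, exceeded the lowest, mouse 1, 6.96-fold. The log2 fold change was 2.85 (SE 0.64; 7.20-fold) with an edgeR quasi-likelihood adjusted p of 0.00620. On the HFD, Col1a1 was at 3.83, 5.51, 8.20, 11.8 and 4.55 CPM in WT mice and at 73.1, 52.8, 22.4, 5.59 and 9.92 CPM in Adn-Lpin1-/- mice. Here only 3 of the 5 Adn-Lpin1-/- mice exceeded every WT mouse, while mice 4 and 5 fell within the WT range. The log2 fold change of 2.27 (SE 0.62, edgeR adjusted p = 0.0160) lost its call without Adn-Lpin1-/- HFD mouse 1 (adjusted p = 0.0560).

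Col1a2, the α2 chain of the same molecule (chr6:4504814-4541543, plus strand), was also called on both diets. It ran from 4.2 to 10.3 CPM in WT LFD mice and from 13.4 to 58.5 CPM in Adn-Lpin1-/- LFD mice, a log2 fold change of 1.88 (SE 0.44, edgeR adjusted p = 0.00798). Its range on the HFD was 6.83 to 13.7 CPM in WT mice and 9.25 to 57.8 CPM in Adn-Lpin1-/- mice (log2 fold change 1.54, SE 0.44, edgeR adjusted p = 0.0194). That call was lost without Adn-Lpin1-/- HFD mouse 1 or mouse 2, with the highest adjusted p at 0.0728.

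Collagen III followed collagen I mouse by mouse. Col3a1, the single chain of collagen III (ENSMUSG00000026043, chr1:45311538-45349706, plus strand), was at 13, 15.9, 6.52, 16.5 and 21.8 CPM in WT LFD mice and at 22, 112, 39.9, 36.4 and 74.4 CPM in Adn-Lpin1-/- LFD mice. On the HFD it was at 15.2, 15.1, 24.7, 28.4 and 15.4 CPM in WT mice and at 122, 81.4, 48.1, 18.5 and 29.6 CPM in Adn-Lpin1-/- mice. The same individuals were high as for Col1a1, namely Adn-Lpin1-/- LFD mice 2 and 5 and Adn-Lpin1-/- HFD mice 1 and 2, and the genotypes overlapped only on the HFD. The log2 fold change was 1.94 (SE 0.47, edgeR adjusted p = 0.00917) on the LFD and 1.60 (SE 0.46, edgeR adjusted p = 0.0216) on the HFD. The HFD call was lost without WT HFD mouse 2 or 5 or without Adn-Lpin1-/- HFD mouse 1 or 2, with adjusted p of at most 0.0799.

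Of the 3 collagen V chains, Col5a1 and Col5a3 were called higher on both diets and Col5a2 on neither. A genotype difference in the ratio Col5a2/Col5a1 was not detected (exact permutation p = 0.643 on the LFD and 0.310 on the HFD). Col5a1, the chain common to most collagen V molecules (chr2:27886425-28039514, plus strand), ran from 5.39 to 9.54 CPM in WT LFD mice and from 9.82 to 19.9 CPM in Adn-Lpin1-/- LFD mice, and from 7.34 to 10.4 CPM against 9.46 to 22.2 CPM on the HFD. Its log2 fold change was 0.75 (SE 0.23, edgeR adjusted p = 0.0331) on the LFD and 0.79 (SE 0.23, edgeR adjusted p = 0.0202) on the HFD. The LFD call was lost without WT LFD mouse 1, 3 or 4 or Adn-Lpin1-/- LFD mouse 2 or 5, and the HFD call without WT HFD mouse 5 or Adn-Lpin1-/- HFD mouse 1 or 2.

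Col5a2, which lies beside Col3a1 on the opposite strand (chr1:45374321-45503282, minus strand), was the least abundant chain. It was at 2.29, 2.07, 2.03, 2.79 and 1.73 CPM in WT LFD mice and at 2.18, 7.08, 3.40, 3.00 and 5.57 CPM in Adn-Lpin1-/- LFD mice. On the HFD it was at 1.68, 2.62, 2.96, 3.81 and 6.75 CPM in WT mice and at 7.31, 6.07, 3.86, 2.04 and 2.67 CPM in Adn-Lpin1-/- mice. WT HFD mouse 5 was the highest of the WT HFD mice in this chain but in none of the other 9, of which it was the lowest in 3. Neither log2 fold change passed the test, 0.96 (SE 0.39, edgeR adjusted p = 0.101) on the LFD and 0.30 (SE 0.37, edgeR adjusted p = 0.612) on the HFD, the latter 0.65 (adjusted p = 0.238) without that mouse.

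Col5a3, a collagen V chain of restricted tissue distribution (ENSMUSG00000004098, chr9:20770050-20815067, minus strand), was the most abundant chain and showed a different pattern. It was at 68.5, 94.0, 79.6, 85.2 and 76.8 CPM in WT LFD mice and at 117, 94.2, 113, 81.5 and 136 CPM in Adn-Lpin1-/- LFD mice. On the HFD it was at 69.1, 59.8, 60.9, 56.4 and 61.4 CPM in WT mice and at 116, 108, 166, 137 and 96.7 CPM in Adn-Lpin1-/- mice. Genotypes did not overlap on the HFD, where the mouse with the lowest Col1a1 (Adn-Lpin1-/- HFD mouse 4) had the second highest Col5a3, whereas on the LFD Adn-Lpin1-/- mouse 4 fell within the WT range. The log2 fold change was 1.02 (SE 0.14, edgeR adjusted p = 8.32e-05) on the HFD, and this call held in every leave-one-out fit with an adjusted p of at most 0.000541. The LFD value was 0.42 (SE 0.14, edgeR adjusted p = 0.0430), a call that held in 8 of the 20 fits that left out a mouse. It was lost without WT LFD mouse 1, 3, 4 or 5, Adn-Lpin1-/- LFD mouse 1, 3 or 5, or any 1 of the 5 WT HFD mice, and in 6 of 10 other fits.

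The collagen VI chains rose on the LFD in all 3 genes. Col6a3 (ENSMUSG00000048126, chr1:90765923-90843971, minus strand), the longest chain, was at 6.18, 5.76, 3.22, 7.48 and 5.69 CPM in WT LFD mice and at 8.28, 25.4, 13.5, 10.5 and 16.0 CPM in Adn-Lpin1-/- LFD mice. On the HFD it was at 5.93, 6.22, 8.47, 9.53 and 5.00 CPM in WT mice and at 23.9, 20.8, 13.7, 9.13 and 10.0 CPM in Adn-Lpin1-/- mice. Every Adn-Lpin1-/- mouse exceeded every WT mouse on the LFD, and 4 of 5 did so on the HFD. The log2 fold change was 1.38 (SE 0.31, edgeR adjusted p = 0.00593) on the LFD and 1.14 (SE 0.30, edgeR adjusted p = 0.0140) on the HFD, and both calls held in all 20 leave-one-out fits.

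Col6a1 and Col6a2 are neighbours in the same orientation on chromosome 10 (chr10:76708792-76726168 and chr10:76595762-76623630, minus strand). Col6a1 ran from 5.24 to 9.72 CPM in WT LFD mice and from 10.0 to 23.7 CPM in Adn-Lpin1-/- LFD mice (log2 fold change 1.00, SE 0.27, edgeR adjusted p = 0.0194). That call was lost without WT LFD mouse 3 or Adn-Lpin1-/- LFD mouse 2. Col6a2 ran from 2.38 to 4.66 CPM and from 6.17 to 16.2 CPM in the same groups (log2 fold change 1.38, SE 0.30, edgeR adjusted p = 0.00466). On the HFD neither passed the test, with log2 fold changes of 0.70 (SE 0.27, edgeR adjusted p = 0.0710) and 0.68 (SE 0.29, edgeR adjusted p = 0.105).

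In WT livers collagen XIV mRNA was second to Col5a3 per base. Col14a1 (chr15:55307750-55520803, plus strand) was at 33.4, 36.8, 15.1, 33.3 and 33.0 CPM in WT LFD mice and at 38.5, 72.7, 51.7, 42.7 and 83.2 CPM in Adn-Lpin1-/- LFD mice. WT LFD mouse 3 had less than its group mates, as it had in 8 of the 10 chains. The log2 fold change of 0.93 (SE 0.25, edgeR adjusted p = 0.0171) lost its call without Adn-Lpin1-/- LFD mouse 5 (adjusted p = 0.0572). On the HFD it ran from 31.3 to 49.0 CPM in WT mice and from 40.2 to 86.7 CPM in Adn-Lpin1-/- mice (log2 fold change 0.58, SE 0.25, edgeR adjusted p = 0.104).

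**Figure D2:**
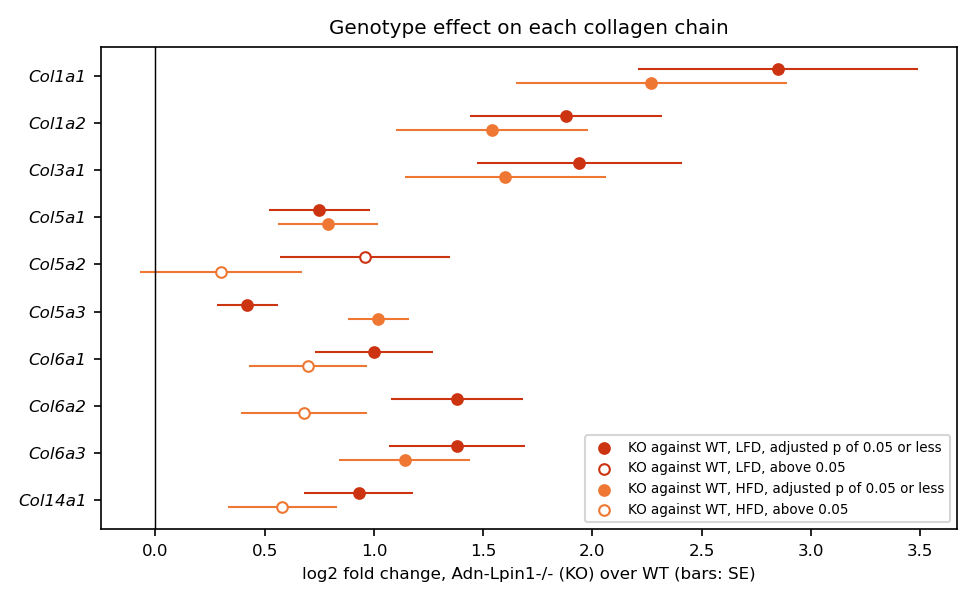
log2 fold change of each collagen chain, Adn-Lpin1-/- (KO) over WT, on the LFD and the HFD, with SE as bars and filled symbols for adjusted p of 0.05 or less. Col1a1 has the largest estimates, 2.85 and 2.27, all 20 estimates lie above 0, and Col5a3 is the chain with the smallest SE.

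Counted together, 9 of the 10 chains were called higher in Adn-Lpin1-/- livers on the LFD, where 6.27% of all genes tested were called higher, and 6 of 10 on the HFD, where 9.87% were. No chain was called lower, a call made for 8.11% of all genes on the LFD and for 8.78% with the HFD. The median log2 fold change of the chains was 1.19 on the LFD and 0.91 on the HFD, with 0.01 and 0.00 for all genes. All 5 Adn-Lpin1-/- mice lay above all 5 WT mice in 8 chains on the LFD (3.89% of all genes) and in 1 chain on the HFD (5.78% of all genes). In bulk tissue, fewer or more cells of a type and less or more RNA per cell cannot be told apart. The LFD count ran from 6 (without WT LFD mouse 3 or Adn-Lpin1-/- LFD mouse 5) to 9 when a mouse was left out, and the HFD count from 2 (without Adn-Lpin1-/- HFD mouse 1; 3 without mouse 2) to 8 (without mouse 4). Voom with quality weights called 8 chains on the LFD and 4 on the HFD, where Col1a1 and Col1a2 were lost, and DESeq2's Wald test called 10 and 7.

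No chain passed the same test for diet. In WT mice 0 of 10 chains passed, where 1.10% of all genes were called, and the log2 fold changes of HFD over LFD ran from -0.39 to 0.71. The lowest was that of Col5a3, the only chain with an unadjusted p under 0.05 in WT mice (SE 0.14, edgeR adjusted p = 0.163), and its LFD and HFD ranges overlapped in WT mice. In Adn-Lpin1-/- mice 0 of 10 passed, also without adjustment, where 2.46% of all genes were called, and the log2 fold changes ran from -0.13 to 0.20. DESeq2's Wald test and voom with quality weights also called 0 of 10 by diet in either genotype.

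The difference between the genotype effects on the 2 diets was tested as an interaction, and 0% of all genes passed in edgeR (0 of 13052, with 938 at an unadjusted p under 0.05). DESeq2's Wald test called 28 genes, voom with quality weights 0, and neither called a chain. For Col5a3 the genotype effect was larger on the HFD by 0.60 on the log2 scale (SE 0.19, unadjusted p = 0.00575, edgeR adjusted p = 0.518), and for the other 9 chains the difference ran from -0.70 to 0.04. A chain called on the LFD and not on the HFD, such as Col6a2, was thus not shown to respond differently on the 2 diets.

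Ratios between chains were taken within each liver, which removes the scaling between libraries. No difference in a ratio passed the adjusted threshold. On the LFD the ratios of Col3a1, Col5a1, Col6a1 and Col14a1 to Col1a1 were each smaller in all 5 Adn-Lpin1-/- mice than in any WT mouse. These ratios share Col1a1, the chain with the largest fold change estimate, and are not independent of each other. The count ratio Col3a1/Col1a1 ran from 2.81 to 4.76 in WT LFD mice and from 1.43 to 2.01 in Adn-Lpin1-/- LFD mice, a mean log2 difference of -0.91 (SE 0.17, exact permutation p = 0.00794, adjusted p = 0.0571). Col14a1/Col1a1 ran from 4.26 to 11 and from 0.931 to 3.43 (difference -1.80, SE 0.39), with the same p values. Col5a1/Col1a1 differed by -2.0 (SE 0.43) and Col6a1/Col1a1 by -1.79 (SE 0.41), again with the same p values. An exact test of 5 against 5 mice cannot go below 0.00794 and the p values were adjusted over 36 tests, of which 0 passed 0.05 and 10 had an unadjusted p under 0.05.

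Within collagen I, the count ratio Col1a1/Col1a2 was 0.546 ± 0.202 (SD, n = 5) in WT LFD mice and 1.03 ± 0.192 in Adn-Lpin1-/- LFD mice. The log2 difference was 0.97 (SE 0.26, exact permutation p = 0.0159, adjusted p = 0.0816), and 1 WT mouse overlapped the Adn-Lpin1-/- range. On the HFD the ratio was 0.665 ± 0.155 in WT mice and 0.996 ± 0.294 in Adn-Lpin1-/- mice (difference 0.56, SE 0.26, exact permutation p = 0.0714, adjusted p = 0.214). Per base of summed exon, the WT LFD ratio was 1.01 and the Adn-Lpin1-/- LFD ratio 1.90. Per base of the longest coding transcript they were 0.493 and 0.927, so the position of these ratios around 1 depends on the length chosen while their order does not.

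Within collagen VI, no ratio passed the adjusted threshold. The count ratio Col6a3/Col6a1 was 0.772 ± 0.102 against 0.999 ± 0.102 on the LFD and 0.778 ± 0.120 against 1.06 ± 0.123 on the HFD (SD, n = 5 each). The log2 difference was 0.37 on the LFD (SE 0.11, exact permutation p = 0.0159, adjusted p = 0.0816) and 0.45 on the HFD (SE 0.13, exact permutation p = 0.00794, adjusted p = 0.0571), where the groups did not overlap. Col6a2/Col6a1 differed by 0.39 (SE 0.17) on the LFD and by -0.01 (SE 0.10) on the HFD, and Col5a2/Col5a1 by 0.11 (SE 0.25) and -0.43 (SE 0.37). No ratio had an unadjusted exact permutation p under 0.05 between diets, the lowest being 0.0556 for Col5a3/Col5a1 in WT mice.

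**Figure D3:**
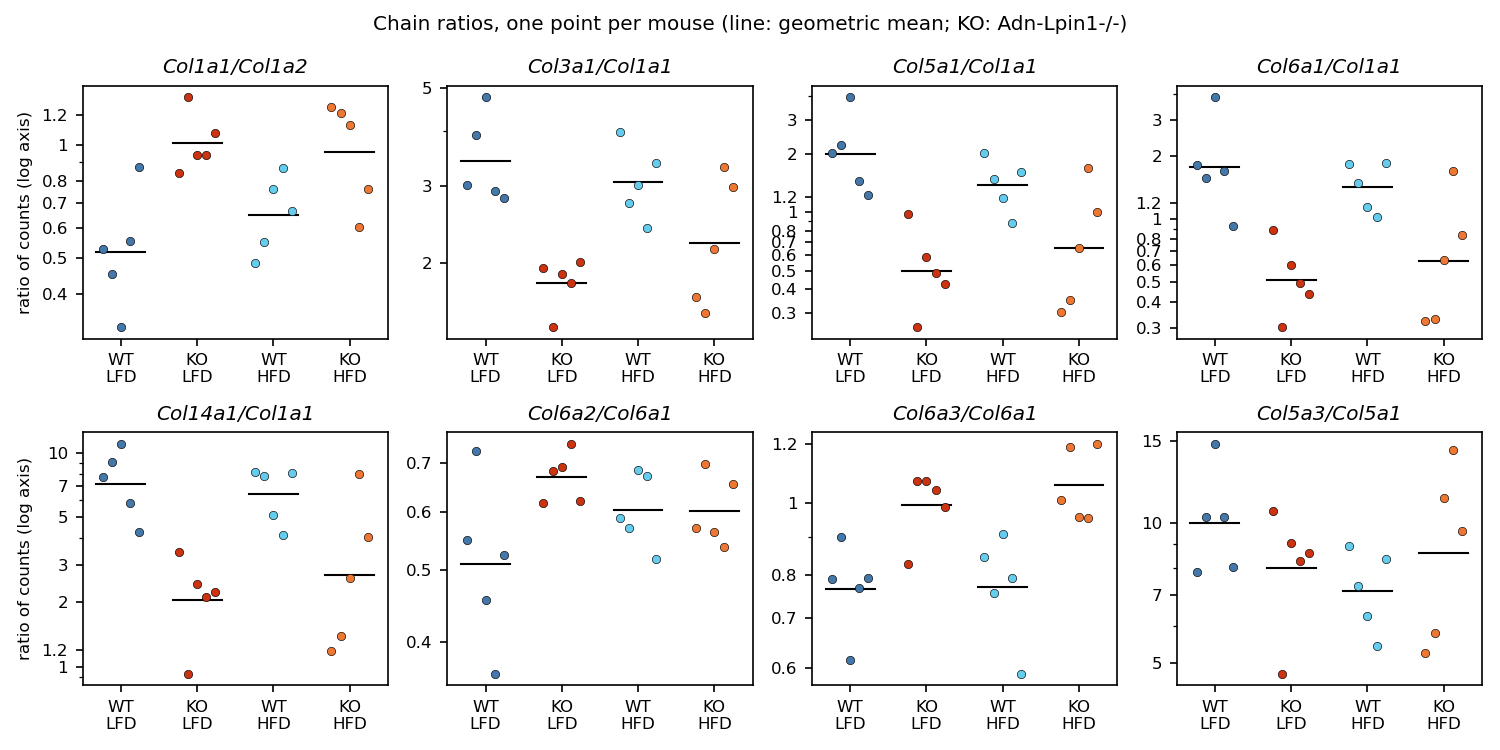
Ratio of the counts of 2 collagen chains in each mouse (log axis), with the geometric mean of each group as a line; KO stands for Adn-Lpin1-/-. The ratios of Col3a1, Col5a1, Col6a1 and Col14a1 to Col1a1, which share Col1a1, separate the genotypes on the LFD. Col6a3/Col6a1 separates them on the HFD.

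Mice of the same group differed together in these chains. After removal of group means, the 28 pairs among the 8 chains other than Col5a2 and Col5a3 had Pearson's r between 0.84 and 0.98 over the 20 mice, and Spearman's rho between 0.86 and 0.97 (permutation test within groups, 100000 permutations, all 28 past an adjusted p of 0.05 over 45 pairs, the largest 8.04e-05). Without the 2 mice farthest from the median in the first chain of a pair, picked anew for each pair, r stayed between 0.83 and 0.97. Col1a1 and Col3a1 had r = 0.98 (0.99 in Adn-Lpin1-/- mice and 0.97 in WT mice), the neighbours Col6a1 and Col6a2 had r = 0.90, and the neighbours Col3a1 and Col5a2 r = 0.72. The relation held within each genotype, with medians of 0.96 in Adn-Lpin1-/- mice and 0.86 in WT mice for the 28 pairs.

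For the 8 pairs of Col5a2 with those chains, r ran from 0.95 to 1.00 in Adn-Lpin1-/- mice and from -0.05 to 0.42 in WT mice, and from 0.35 to 0.80 in the 9 WT mice left without WT HFD mouse 5. The difference between the genotypes was not tested. The 8 pairs had r between 0.64 and 0.80 over all 20 mice, all past the threshold (largest adjusted permutation p 0.00850). Without WT HFD mouse 5, the mouse with 6.75 CPM, r of Col5a2 with Col1a1 was 0.89 in place of 0.73.

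None of the 9 pairs with Col5a3 was correlated by this test. Their r ran from -0.16 to 0.10 and rho from -0.26 to -0.05, with permutation p of at least 0.609 for r. The range was -0.17 to 0.20 within Adn-Lpin1-/- mice and -0.37 to -0.09 within WT mice. A correlation of the most abundant chain with the other 9 was thus not detected in these 20 mice, although it too was higher in Adn-Lpin1-/- livers.

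**Figure D4:**
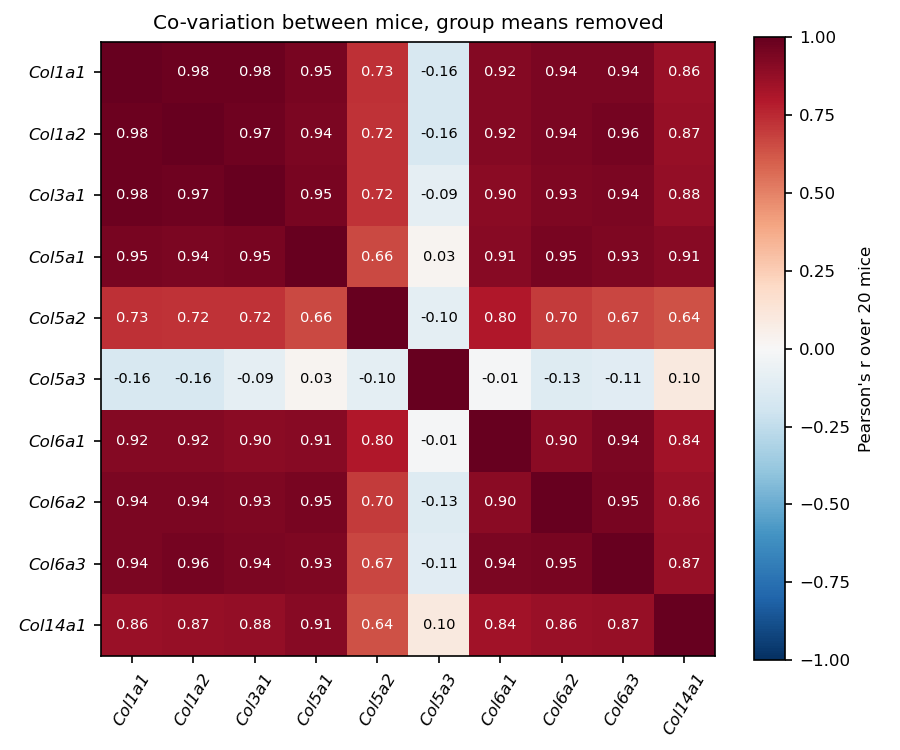
Pearson's r between the log2 levels of each pair of collagen chains over the 20 mice after removal of group means, from blue (-1) to red (1). The row of Col5a3 is near 0 throughout, and the pairs among the 8 chains other than Col5a2 and Col5a3 lie at 0.84 or above.

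Outside the 10 chains, the genes whose profile over the 20 mice was most like the mean of the scaled chains were Loxl2 (r = 0.977), a lysyl oxidase that crosslinks collagen, Pdgfrb (r = 0.965), the PDGF receptor of stellate cells and pericytes, and Htra1 (r = 0.961), a secreted protease. Heg1 (0.954), Olfml3 (0.953), Vim (0.953), the mesenchymal filament vimentin, Mcm2 (0.951) and Adamts2 (0.951), the N-propeptidase of procollagen, came next. For Col5a3 alone the nearest genes were Ehbp1l1 (0.868), Ushbp1 (0.863) and Brd9 (0.862), a comparison chosen after its values were seen. These r include the group differences and are given as a description.

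Single marker genes were set beside Col1a1 and Col5a3 between mice of a group, also after the values were seen. Col1a1 correlated with 5 of 11 markers, namely Lrat, the retinol esterifying enzyme of stellate cells (r = 0.77, rho = 0.76, permutation adjusted p = 0.00946 over 22 pairs), Des (r = 0.56, rho = 0.60, permutation adjusted p = 0.0196), the elastin gene Eln (r = 0.72, rho = 0.71, permutation adjusted p = 0.0323), Fbln2 (r = 0.73, rho = 0.76, permutation adjusted p = 0.0196) and the macrophage gene Cd68 (r = 0.68, rho = 0.73, permutation adjusted p = 0.0433). Without the 2 mice farthest from the median these r were 0.75, 0.57, 0.64, 0.60 and 0.61. With Acta2, the smooth muscle actin of myofibroblasts, r was 0.43 (rho = 0.30, permutation adjusted p = 0.270) and 0.18 without those 2 mice. Krt19, Msln, Pecam1, Stab1 and Alb did not pass either, with r of 0.46, 0.38, 0.37, -0.08 and -0.21 and adjusted permutation p between 0.235 and 0.821. For Col5a3 none of 11 markers passed, and the highest r was 0.44, with the endothelial gene Pecam1 (rho = 0.36, permutation adjusted p = 0.208).

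Col4a1 and Col4a2, chains of the basement membrane collagen IV, were called higher on both diets. Of 12 other collagens tested, 4 were called higher and 0 lower on the LFD, and 5 higher and 0 lower on the HFD, with medians of 0.28 and 0.63. Col4a1 averaged 24.3 ± 7.71 CPM in WT LFD mice and 55.1 ± 13.9 CPM in Adn-Lpin1-/- LFD mice (log2 fold change 1.18, edgeR adjusted p = 0.00551), and Col4a2 21.8 ± 6.72 and 44.9 ± 10.6 CPM (1.04, edgeR adjusted p = 0.00600). On the HFD both were also called (0.94 and 1.10, adjusted p = 0.0165 and 0.00359). Col12a1 was called on both diets, Col16a1 on the LFD (1.06, adjusted p = 0.00780), and Col7a1 and Col27a1 on the HFD (1.49 and 1.03, adjusted p = 0.00585 and 0.00300). Col18a1, the source of endostatin and the most abundant of these at 1626 ± 163 CPM in WT LFD mice, was at 1430 ± 69.6 CPM in Adn-Lpin1-/- LFD mice (log2 fold change -0.19, adjusted p = 0.113), and neither Col15a1 nor the third collagen IV chain tested, Col4a5, was called on either diet.

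Of 20 tested enzymes and helpers that fold and modify collagen, 5 were called higher and 0 lower on the LFD. With the HFD, 3 were called higher and 1 lower. The list medians were 0.16 (LFD) and 0.27 (HFD). Among all tested genes, higher calls made up 6.27% under the LFD and 9.87% under the HFD. Lower calls made up 8.11% and 8.78%. Both HFD counts of this list and its lack of lower LFD calls lay near those shares. Serpinh1, the collagen chaperone HSP47, was called on both diets (0.85 and 0.66, edgeR adjusted p = 0.0174 and 0.0445), as was Sparc, a collagen-binding glycoprotein (0.82 and 0.80, adjusted p = 0.0270 and 0.0260). Creb3l1, a transcription factor of collagen-secreting cells, and Fkbp10 were called on the LFD (1.20 and 1.04, adjusted p = 0.0171 and 0.0162), as was P3h4, and Plod1 was called on the HFD. P4hb, the prolyl hydroxylase subunit and most abundant of the list, was at 1466 ± 131 and 1440 ± 98.2 CPM in WT and Adn-Lpin1-/- LFD mice, and the prolyl isomerase Ppib was the gene called lower on the HFD (-0.36, adjusted p = 0.0329).

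Genes that process and crosslink secreted procollagen were called higher in 5 of 9 cases with the LFD and in 1 with the HFD. None was called lower, and the medians were 0.68 and 0.61. The single HFD call lay near the background, since 9.87% of all tested genes were called higher under that diet. Under the LFD the background was 6.27%. Adamts2 averaged 3.45 ± 1.19 CPM in WT LFD mice and 9.32 ± 3.47 CPM in Adn-Lpin1-/- LFD mice (log2 fold change 1.43, edgeR adjusted p = 0.00469). Loxl1 (1.56, adjusted p = 0.0237), Loxl2 (1.33, adjusted p = 0.00792) and Pcolce, the enhancer of C-propeptide removal (0.68, adjusted p = 0.0451), were also called on the LFD with Loxl3, and Adamts14 was the gene called on the HFD (0.83, adjusted p = 0.0255). Lox itself had at most 31 counts in a mouse and was not tested.

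Of the fibril organisers, 8 of 11 were called higher with the LFD, 2 with the HFD and none lower, with medians of 0.80 and 0.40. Over all tested genes, 6.27% were called higher and 8.11% lower on the LFD, and 9.87% and 8.78% on the HFD. The HFD count and the lack of lower calls lay near those shares. Fbln2, encoding the matrix glycoprotein fibulin 2, had the largest estimates, from 1.04 ± 0.278 to 4.09 ± 1.74 CPM on the LFD (log2 fold change 1.97, SE 0.37, edgeR adjusted p = 0.00157) and from 1.59 ± 0.630 to 4.42 ± 2.00 CPM on the HFD (1.48, adjusted p = 0.00712). On the LFD the estimate for Fmod (1.96, SE 0.55) was not separated from it. Fmod (fibromodulin) and Dpt (dermatopontin) were called on the LFD (1.96 and 1.71, adjusted p = 0.0224 and 0.0104), as were the small proteoglycan genes Dcn, Lum, Bgn and Prelp, and Tnxb (tenascin X) on both diets (1.21 and 1.00, adjusted p = 0.00688 and 0.0174). Fn1, fibronectin, which hepatocytes secrete in bulk, was at 1989 ± 186 and 1743 ± 189 CPM on the LFD.

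Among collagen receptors 1 of 9 was called higher and 1 lower on each diet, with medians of 0.40 and 0.62. Of all genes, 6.27% were called higher and 8.11% lower on the LFD, and 9.87% and 8.78% on the HFD. The receptor counts lay near those shares. The endocytic receptor Mrc2 was the one called higher on the LFD (1.47, edgeR adjusted p = 0.0125) and Itga10 on the HFD (0.73, adjusted p = 0.0113), while the integrin gene Itga1 was lower on both (-0.45 and -0.29, adjusted p = 0.00394 and 0.0391). Of the collagen-degrading enzymes and their inhibitors only 4 of 10 were tested. The gelatinase Mmp2 (1.15, adjusted p = 0.0374) and the inhibitors Timp2 (0.99, adjusted p = 0.0117) and Timp3 (1.24, adjusted p = 0.00335) were higher on the LFD, and Timp3 also on the HFD (0.80, adjusted p = 0.0308), with list medians of 1.07 and 0.53. Mmp14, the most abundant, was not called on either diet (-0.13 and -0.15), and Timp1, with at most 42 counts in a mouse, was not tested.

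Regulators of collagen genes were called higher in 4 and lower in 1 of 14 on the LFD, and in 1 each on the HFD, with medians of 0.33 and 0.32. Of all genes, 6.27% were called higher and 8.11% lower on the LFD, and 9.87% and 8.78% on the HFD. The HFD counts and the lower count on the LFD lay near those shares. Ccn2, a target of TGF-β and YAP signalling, was higher on the LFD (1.27, edgeR adjusted p = 0.0230), as were Pdgfb and Mrtfa, and Pdgfrb on both diets (0.95 and 0.66, adjusted p = 0.00578 and 0.0336). Tgfb1, the main profibrotic ligand, was not called (0.44 and 0.66, adjusted p = 0.253 and 0.0627), and the receptor gene Tgfbr1 was lower on both diets (-0.46 and -0.29, adjusted p = 0.000191 and 0.00640). In WT mice the HFD lowered 2 of the 12 other collagens (Col11a2 and Col27a1), 1 of the 20 folding enzymes (Fkbp14) and 1 of the 9 receptors (Itga10), and in Adn-Lpin1-/- mice it raised 1 receptor (Antxr2). No other gene of these 7 lists was called by diet. The share of all tested genes called by diet was 1.10% in WT mice and 2.46% in Adn-Lpin1-/- mice. Over these lists, the single call in Adn-Lpin1-/- mice lay near its share.

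**Figure D5:**
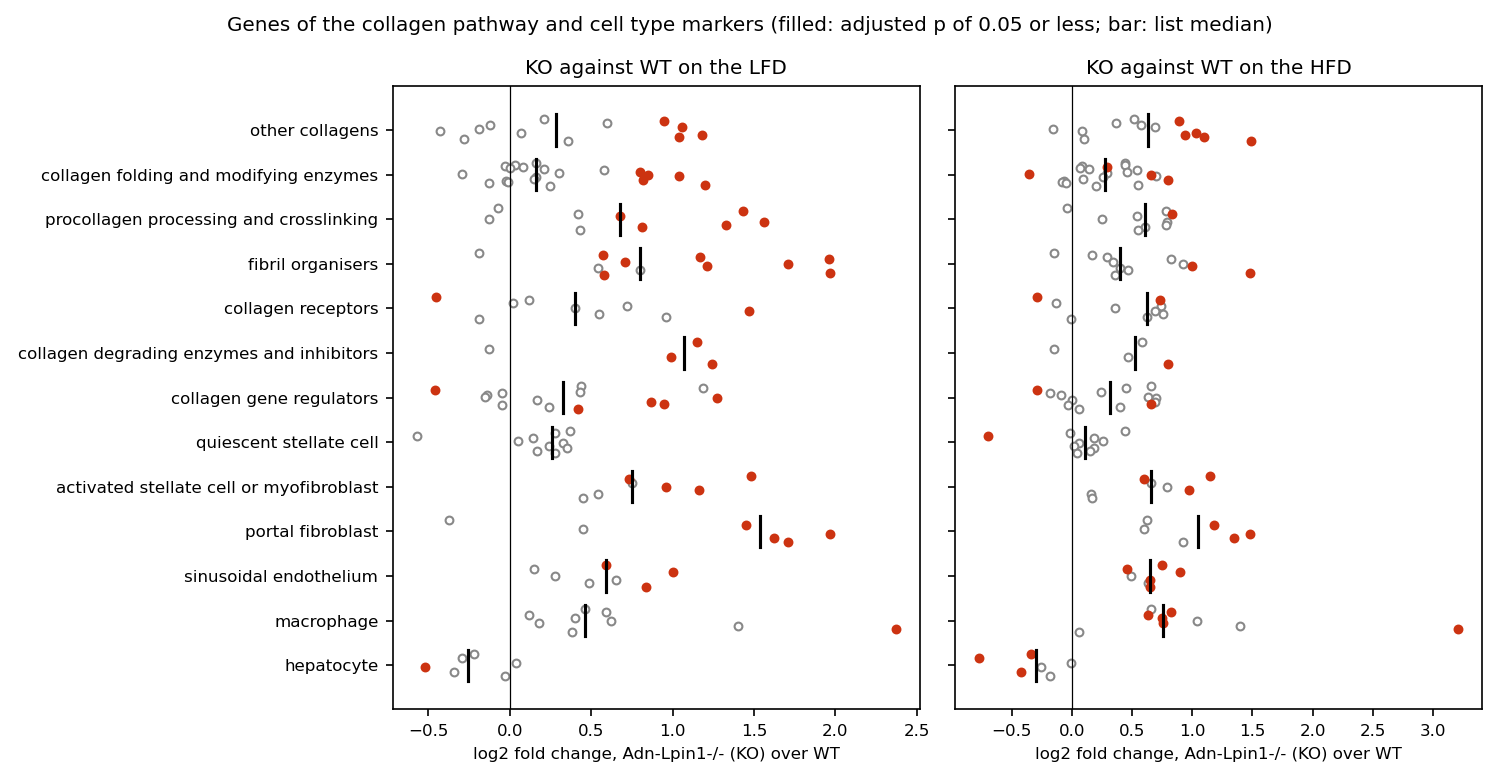
log2 fold change of each tested gene of the collagen pathway lists and of 6 cell type marker lists, Adn-Lpin1-/- (KO) over WT, on the LFD (left) and the HFD (right), with filled points for adjusted p of 0.05 or less and a bar at each list's median. Quiescent stellate cell markers have medians of 0.26 and 0.10 and portal fibroblast markers medians of 1.53 and 1.05.

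The markers of matrix-producing cells were called higher in part. Portal fibroblast and myofibroblast markers included called genes, and no quiescent stellate cell marker was called higher. Over all tested genes, 6.27% were called higher on the LFD and 9.87% on the HFD. Portal fibroblast markers were called higher in 4 of 6 cases with the LFD and in 3 with the HFD, with medians of 1.53 and 1.05, and their summed level ran from 7.20 to 10.5 CPM in WT LFD mice, 13.6 to 27.4 in Adn-Lpin1-/- LFD mice, 6.90 to 11.9 in WT HFD mice and 8.84 to 25.9 in Adn-Lpin1-/- HFD mice. Eln (1.45 and 1.18, edgeR adjusted p = 0.00977 and 0.0214), Mfap4 (1.62 and 1.35, adjusted p = 0.00828 and 0.0160) and Fbln2 carried these calls, with Dpt on the LFD. Fbln2 and Dpt are also among the fibril organisers, Entpd2, the most abundant marker in WT mice on both diets, did not pass on either (Dpt led in Adn-Lpin1-/- LFD mice and Fbln2 in Adn-Lpin1-/- HFD mice), and the defining marker Thy1 was not called (-0.37 and 0.62, adjusted p = 0.301 and 0.0540). Gli1, another defining marker, had at most 17 counts in a mouse. The part of these cells in the collagen values was not tested.

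Of 7 activated stellate cell or myofibroblast markers, 4 were called higher on the LFD and 3 on the HFD (medians 0.75 and 0.66), their sum running from 40.8 to 58.9 CPM in WT LFD mice, 54.6 to 109 in Adn-Lpin1-/- LFD mice, 30 to 58.5 in WT HFD mice and 42.4 to 88.0 in Adn-Lpin1-/- HFD mice. Acta2 averaged 0.937 ± 0.559 and 2.62 ± 1.09 CPM on the LFD (log2 fold change 1.48, edgeR adjusted p = 0.0162) and 1.44 ± 0.323 and 3.19 ± 1.49 CPM on the HFD (1.15, adjusted p = 0.0370). Tagln and Mgp were called on both diets and Fbn1 on the LFD, while Spp1, the most abundant, and Des were not. Over all tested genes, 6.27% were called higher and 8.11% lower on the LFD, and 9.87% and 8.78% on the HFD. The counts that follow for quiescent markers lay near those shares. Quiescent stellate cell markers, 10 of 10 tested, were called higher in 0 on either diet and lower in 0 on the LFD and 1 on the HFD (Hgf, -0.70, adjusted p = 0.0373). Their sum had medians of 307, 320, 347 and 354 CPM in WT LFD, Adn-Lpin1-/- LFD, WT HFD and Adn-Lpin1-/- HFD mice, with Ecm1 the most abundant and Lrat at 0.37 and 0.44 (adjusted p = 0.383 and 0.251).

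Among the other non-parenchymal cells, calls were made for some endothelial, macrophage and adipocyte markers and for no mesothelial, smooth muscle or cholangiocyte marker. The share of all tested genes called higher was 6.27% on the LFD and 9.87% on the HFD. With 1 of 9, the macrophage count on the LFD lay near the LFD share. Sinusoidal endothelial markers were called higher in 3 of 7 cases with the LFD and in 5 with the HFD (medians 0.59 and 0.65), among them Stab1 (0.59 and 0.75, edgeR adjusted p = 0.000805 and 8.42e-05), the most abundant in Adn-Lpin1-/- mice as Stab2 was in WT mice, with Lyve1 and Pecam1 also called on both diets and Stab2 and Oit3 on the HFD, and their summed medians were 146, 189, 136 and 209 CPM in the same group order. Macrophage markers were called higher in 1 of 9 and 5 of 9 (medians 0.46 and 0.76), with Clec4f the most abundant and Gpnmb called on both diets (2.37 and 3.21, adjusted p = 0.0395 and 0.00573) and Cd68, Clec4f, Vsig4 and Cd5l on the HFD, and summed medians of 157, 164, 135 and 230 CPM. Of 3 adipocyte markers tested, 2 were called higher on the LFD and 1 on the HFD, with summed medians of 35.4, 51.6, 50.4 and 110 CPM. Lipe was the most abundant of them in 3 groups and Cfd in Adn-Lpin1-/- HFD mice. Cfd, encoding adipsin, averaged 0.831 ± 1.08 and 11.3 ± 14.1 CPM on the LFD (3.76, adjusted p = 0.0376) and 5.83 ± 6.36 and 81.8 ± 81.2 CPM on the HFD (3.81, adjusted p = 0.0150), with Pparg also called on the LFD (1.4, adjusted p = 0.0286), while Plin1 and Lep had at most 5 and 4 counts in any mouse. Adipoq, encoding adiponectin, was below the filter and totalled 176 counts over the WT LFD mice, 19 over the Adn-Lpin1-/- LFD mice, 52 over the WT HFD mice and 10 over the Adn-Lpin1-/- HFD mice. A single WT LFD mouse held 168 of these counts. The WT LFD total thus rests on that mouse and does not order the genotypes on the LFD. The summed adipocyte markers were at 211, 245, 110, 36.5 and 50.2 CPM in Adn-Lpin1-/- HFD mice 1 to 5, so mice 1 and 2, with the highest Col1a1, were also the highest here, and mouse 4 the lowest in both.

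Mesothelial (5 tested), vascular smooth muscle (5 tested) and cholangiocyte markers (4 tested) were called in 0 in either direction on both diets. Their medians were 1.30, 0.45 and 0.76 on the LFD and -0.22, 0.47 and 0.31 on the HFD, with Krt19, Mylk and Sox9 the most abundant (Upk3b in place of Krt19 in WT HFD mice), and summed medians of 2.70 and 3.97, 158 and 154, and 6.95 and 8.88 CPM in WT and Adn-Lpin1-/- LFD mice. Adn-Lpin1-/- LFD mouse 2, the highest of its group in 8 of the 10 collagen chains, stood apart in the mesothelial sum with 16.4 CPM, against 3.20, 3.97, 7.73 and 3.21 CPM in mice 1, 3, 4 and 5, and also had the highest cholangiocyte sum, 14.2 CPM. Krt7 and Krt19 are in both lists, so these sums overlap. Sox9, in the cholangiocyte list only, was at 5.51 CPM in mouse 2 and at 6.27 CPM in mouse 3. Without Adn-Lpin1-/- LFD mouse 2, 7 chains were called on the LFD. On the HFD the mesothelial sums ran from 4.42 to 8.03 CPM in WT mice and from 3.16 to 6.86 CPM in Adn-Lpin1-/- mice. Msln, which defines the mesothelium of the liver capsule, averaged 0.262 ± 0.221 CPM in WT LFD mice and 1.12 ± 1.41 CPM in Adn-Lpin1-/- LFD mice (2.06, edgeR adjusted p = 0.0783). The list of gall bladder, pancreas, gut and muscle genes had 1 tested gene, Cela1, lower on the LFD (-0.91, adjusted p = 0.0469), and its summed medians were 28.0 and 10.5 CPM on the LFD. In Adn-Lpin1-/- HFD mice 1 to 5 that sum was 10.4, 12.2, 14, 30.3 and 31.1 CPM, lowest in the mice with the highest Col1a1. Hepatocyte markers were called lower in 1 of 6 on the LFD (Serpina1c) and 3 of 6 on the HFD (Alb, Apoa1 and Cyp2e1). Their medians were -0.26 and -0.30. Among all tested genes, lower calls made up 8.11% under the LFD and 8.78% under the HFD. The single hepatocyte call under the LFD lay near its share. In single libraries up to 3 mesothelial, 3 adipocyte and 2 portal fibroblast markers had 0 counts. The share of these markers in the collagen differences was not tested.

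By its label, each pool library combined the 5 mice of its group, so it is not an independent reading of that group. In each of the 4 groups, all 10 chains in the pool lay between the lowest and the highest single mouse. The pool's level divided by the mean of the 5 mice had a median over the chains of 0.956 for WT LFD mice, 0.985 for Adn-Lpin1-/- LFD mice, 0.997 for WT HFD mice and 1.04 for Adn-Lpin1-/- HFD mice, with extremes of 0.765 and 1.31.

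Promoters are shown for Col3a1, which correlated between mice of a group with the chains other than Col5a3. They are also shown for Col5a3, for which no such correlation was detected, although it too was higher in Adn-Lpin1-/- livers. RefSeq (GRCm38.p6) gave promoters for 7 of the 10 chains, and the 250 bases before each start were searched on both strands for the TATA box (TATAAA), the CCAAT box, the GC box (GGGCGG) and a SMAD-binding element (CAGACA). Of all 32851 promoters 12.4% hold the first, 33.8% the second, 32.7% the third and 17.1% the fourth. The sequences are 5′ to 3′ on the gene's strand with matches in capitals, Col3a1 at chr1:45311288-45311537 (plus strand) and Col5a3 at chr9:20815068-20815317 (minus strand):
Col3a1: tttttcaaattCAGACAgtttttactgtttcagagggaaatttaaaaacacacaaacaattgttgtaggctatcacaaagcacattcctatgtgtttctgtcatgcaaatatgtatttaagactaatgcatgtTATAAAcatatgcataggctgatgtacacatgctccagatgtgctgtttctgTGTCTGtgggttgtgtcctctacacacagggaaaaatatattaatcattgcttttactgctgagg
Col5a3: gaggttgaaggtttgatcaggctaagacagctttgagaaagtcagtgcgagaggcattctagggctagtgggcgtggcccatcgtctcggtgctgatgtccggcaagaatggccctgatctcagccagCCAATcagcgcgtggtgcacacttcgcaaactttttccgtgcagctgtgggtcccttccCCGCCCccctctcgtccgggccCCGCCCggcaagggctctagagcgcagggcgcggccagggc
The Col3a1 window had 1 TATAAA and 2 CAGACA matches, no GC box and a GC content of 35.2%. The Col5a3 window had 1 CCAAT and 2 GC boxes, no CAGACA and a GC content of 62.8%. Of the other windows, Col1a2 and Col5a1 held 1 CAGACA each, and those of Col6a1, Col6a2 and Col6a3 none. A match is a run of letters and not a measured site.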

How the data were processed

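Per the labels and the study's methods, libraries were poly-A selected and reads were aligned with STAR 2.5.1a to the mouse genome (GRCm38, Ensembl release 76) and counted per gene with featureCounts 1.4.6-p5 on uniquely aligned, unambiguous reads, without strand as the library preparation is described. The authors deposited raw counts, CPM and RPKM per gene for each library; only the counts were used, together with the deposited gene length, and CPM values in the text were recomputed from them. RPKM were not used. The antisense genes that overlap Col5a1, Col5a3 and Col14a1 had at most 19 counts in any mouse.

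Ribosomal RNA genes (355) were removed, and a gene was kept when 4 or more of the 20 libraries of single mice had over 1 CPM. Each library is a single mouse by its label. edgeR 4.0.16 (R 4.3.3) fitted the 4 group means by quasi-likelihood with TMM scaling, and 5 contrasts were tested with Benjamini-Hochberg adjustment over 13052 genes at 0.05. The fit was first tested on simulated data. Chain ratios used log2 counts with 0.5 added and two-sided exact permutation tests. Correlations used log2(CPM + 0.5), less group means, and 100000 permutations within groups, whose smallest p is 1e-05. The CPM of the pools come from a TMM scaling over all 24 libraries.

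The chains, the gene lists and the tests were chosen with earlier results of these data known. Of each list the most abundant gene over all mice, up to 3 called genes with the largest change in each genotype comparison and a fixed set of landmark genes were named, and the other list genes called by genotype are named, without values, after their values were seen. Alternatives were other scalings and filters, DESeq2 1.42.0, limma 3.58.1 voom with quality weights with and without pools, a correction for GC content, 2 groups only, a block on mouse number, and each mouse left out. Levels per transcript length and the pairs with markers were added after the data were seen. The lowest count of a chain in a mouse was 46 (Col1a1), and single markers had down to 0, so counting error adds to the spread between mice.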

Additional observations from a re-analysis of the deposited data

Results flagged for a closer look

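In 76 groups of 5 values (the CPM of the 10 chains and the log2 values of their 9 ratios in each of the 4 groups), 1 value stood apart by Dixon's criterion, which chance meets in about 1 group in 20. Col14a1 in WT LFD mouse 3 was at 15.1 CPM, with the nearest of its group at 33.0 CPM, a gap of 0.825 of the group's range. The same mouse had the lowest level of 8 of the 10 chains in its group. It was also the lowest of its group in the summed markers of quiescent stellate cells (169 CPM, the next 240 CPM), sinusoidal endothelium (107 CPM, the next 120 CPM) and macrophages (104 CPM, the next 121 CPM). In contrast, it was at the group median for portal fibroblast (7.77 CPM) and activated stellate cell or myofibroblast markers (46.7 CPM). For cholangiocyte markers it was the highest (9.92 CPM). Without it, 6 chains in place of 9 and 1208 genes in place of 1877 were called between genotypes on the LFD, and the part of these markers in its values was not tested. With the ratios on a linear scale, a choice made after the data were seen, Col5a2/Col5a1 in WT HFD mouse 5 also stood apart, with a count ratio of 0.918 and the nearest of its group at 0.367, a gap of 0.786 of the range.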

How the results depend on the processing

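On the LFD, Col1a1, Col1a2, Col3a1, Col6a2 and Col6a3 were called in the 10 other fits and in all 20 that left out a mouse, and on the HFD only Col5a3 and Col6a3 were. The cause of the changes below was not tested unless named. Over all single genes, ratios and pairs and all alternatives, a call was lost in 368 cases, gained in 54 and a sign changed in 40. Voom with quality weights and the pools, which adds a library made from RNA of a group's mice, called 4177, 4763, 1927, 2327 and 190 genes for genotype on the LFD, genotype on the HFD, diet in WT mice, diet in Adn-Lpin1-/- mice and the interaction, and 10, 10, 1, 0 and 1 of the 10 chains by the same order. DESeq2's Wald test called 400, 577 and 28 genes in the last 3 of these, voom with quality weights alone 670 genes for diet in WT mice, and a fit of only the 2 groups compared 70 and 155 genes for diet in WT and in Adn-Lpin1-/- mice. Leaving out a mouse gave 1208 to 1954 genes for genotype on the LFD, 1477 to 2750 for genotype on the HFD, 55 to 289 for diet in WT mice and 123 to 383 for diet in Adn-Lpin1-/- mice. The chains called ran from 6 to 9 and from 2 to 8 for genotype on the LFD and the HFD. Without scaling beyond library totals the median of all genes moved to 0.10 for genotype on the LFD and 0.13 for genotype on the HFD, where 8 chains were called, and with the GC trend removed 7 chains were called on the LFD, without Col5a1 and Col5a3.

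Mouse numbers did not pair the mice across groups (mean r of same-numbered mice from -0.0882 to 0.0779). The fit with a block on the number called 8 chains on the LFD and 4 on the HFD, where Col1a1 (adjusted p = 0.0542) and Col3a1 (adjusted p = 0.0585) were lost, and 90 genes for diet in WT mice. Among the other genes fitted with it, 48 on the LFD and 45 on the HFD, it lost 9 calls on each diet. Bgn, Col12a1, Dcn, Loxl3, Lum, Mrtfa, P3h4, Plod1, Prelp, Stab2 and Vsig4 were not among these genes.

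Chain ratios past the threshold numbered 0 to 6 when a mouse was left out, 6 without Adn-Lpin1-/- HFD mouse 4 alone. Values near 0 changed sign: leaving out a mouse moved Col5a2/Col5a1 on the LFD between -0.03 and 0.25, Col6a2/Col6a1 on the HFD between -0.06 and 0.04, Col15a1 on the LFD between -0.34 and 0.04 (0.03 by voom) and Lpin1 on the HFD between -0.03 and 0.69. The r of Col5a3 ranged from -0.14 to 0.13 with Col5a1, -0.23 to 0.11 with Col6a1 and -0.07 to 0.17 with Col14a1. With Col6a1 it was 0.08 in Adn-Lpin1-/- mice alone and 0.00 with DESeq2 size factors. In WT mice alone, r was -0.03 for Col1a2 and Col5a2, -0.05 for Col5a1 and Col5a2, -0.16 for Col5a1 and Col5a3 and -0.12 for Col5a3 and Col14a1. Of the marker pairs, r in WT mice alone was 0.27 for Col1a1 with Alb, -0.04 with Acta2, -0.29 with Msln and 0.03 with Stab1, and for Col5a3 it was -0.36 with Lrat, -0.00 with Eln, -0.26 with Fbln2 and 0.78 with Msln. For Col5a3 with Acta2 it was -0.05 in Adn-Lpin1-/- mice alone.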
